A study of Mus musculus with 3 samples.

Results

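The mutant Q84E form of human ATP11A was compared with wild-type human ATP11A in the same flippase-deficient mouse T-lymphoma line. The comparison rests on 2 of the 3 arrays of the study, 1 array for each form, and was read as the log2 ratio of the Q84E signal over the wild-type signal. A probe set, the group of oligonucleotides that reports 1 transcript, entered the comparison if the array's annotation gave it exactly 1 gene symbol and its signal reached the 75th percentile of its own array on at least 1 of the 2 arrays. Of the 34958 probe sets with exactly 1 symbol, 10717 (30.7%) did so, and they stood for 6803 of 18194 genes. Of these probe sets 10017 reached the limit on both arrays, 348 on the Q84E array only and 352 on the wild-type array only, and the remaining 24241 are not compared here. Probe sets at the edge of the limit, a signal of 373.0 for wild-type and 392.2 for Q84E ATP11A, were those of Rnf19b (373.0 and 319.6) and Apba3 (373.1 and 387.3) just inside, and of Stx18 (364.5 and 392.1) and Mcoln1 (240.9 and 392.04) just outside.

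Gene expression had been measured in WR19L, a T-lymphoma cell line of BALB/c mice. Both groups compared are DKO cells, a derivative of WR19L that lacks flippase activity according to the study's design, and each stably expresses human ATP11A from a transgene, in its wild-type form in one group and with the Q84E change in the other. The study's other array held parental WR19L cells, which have neither the DKO genotype nor a transgene, and its signals are given beside the others for orientation. All cells were grown in RPMI1640 medium with fetal calf serum and antibiotics and received no treatment. The labels do not say whether each line was 1 clone or a pool, which promoter drove the transgene or how much protein it made, and DKO cells without a transgene are not analysed here. A difference between the 2 arrays can therefore not be told apart from a difference between 2 cultures, clones or transgene levels.

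ATP11A is a P4-ATPase, a pump of the plasma membrane that uses ATP to move the aminophospholipids phosphatidylserine and phosphatidylethanolamine from the outer to the inner leaflet. It leaves the endoplasmic reticulum only in complex with a chaperone subunit, TMEM30A. The outer leaflet is rich in sphingomyelin and phosphatidylcholine, and sphingomyelin synthase makes the former in the Golgi by transferring the phosphocholine head group of phosphatidylcholine to ceramide, which leaves diacylglycerol as the second product. Cholesterol associates with sphingomyelin in this leaflet, and in T cells these lipids surround the T cell receptor and its signalling proteins.

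With 1 array per group no test, SD over cultures or p-value can be had, so every statement is about these arrays, and the number of arrays limits the precision. A pair of probe sets of the same gene gave a measure of technical error. For genes with several compared probe sets, the SD of a log2 ratio was scaled to 1 probe set. It was 0.097 for 807 genes with probe sets at or above the 90th percentile on both arrays. For the remaining compared probe sets, which include those bright on 1 array only, it was 0.19, from 1443 genes. This SD does not cover differences between cultures. Log2 ratios of the 18 hybridisation control probe sets had an SD of 0.093, and those of the 24 labelling controls an SD of 0.20 and a range from -0.48 to 0.34. The ratios of 3-prime to 5-prime signal on the parental, wild-type and Q84E arrays were 1.24, 1.25 and 1.27 for Actb and 0.721, 0.720 and 0.724 for Gapdh. For Tfrc they were 2.74, 2.96 and 3.27, the highest being that of the Q84E array, and the part of this in the results was not tested. Of 12 T cell marker genes 10 had a named probe set, 7 of which reached the 75th percentile on every array, while Cd3e and Cd5 lay under the 50th percentile on all of them. The summed T cell marker signal was 36671 on the parental, 31802 on the wild-type and 36223 on the Q84E array. No marker of B cells, myeloid cells, erythroid cells, natural killer cells or fibroblasts reached the 75th percentile on any array, the highest signal among them being 158.

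The 2 forms of ATP11A went with nearly the same transcript levels in most genes, and the genes far apart were mostly higher with Q84E. Each gene was represented by its brightest compared probe set. The median log2 ratio over the 6803 genes was 0.0094, 3558 genes (52.3%) lay above 0, and 5917 genes (87.0%) were within 1.25-fold. At least 2-fold higher with Q84E were 50 of the 10717 probe sets (0.467%), and 12 (0.112%) were at least 2-fold lower. As genes these were 27 of 6803 higher (0.397%) and 8 lower (0.118%). At the looser limit of 1.5-fold the counts were 138 genes higher (2.03%) and 39 lower (0.573%). These shares over all genes are the background for the counts within each gene list below. A gene far apart that reached the brightness limit on 1 array only was bound to be higher on that array, and 18 of the 27 higher genes reached it on the Q84E array only, as 7 of the 8 lower genes did on the wild-type array only. Among the 6482 genes bright on both arrays, 9 were at least 2-fold higher and 1 lower, and 76 and 26 passed 1.5-fold. The arrays had been deposited with equal trimmed means. When their medians were made equal instead, every log2 ratio fell by 0.14 and the split became 21 genes higher and 12 lower, so that 63.6% rather than 77.1% of the genes past 2-fold were higher.

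**Figure D1:**
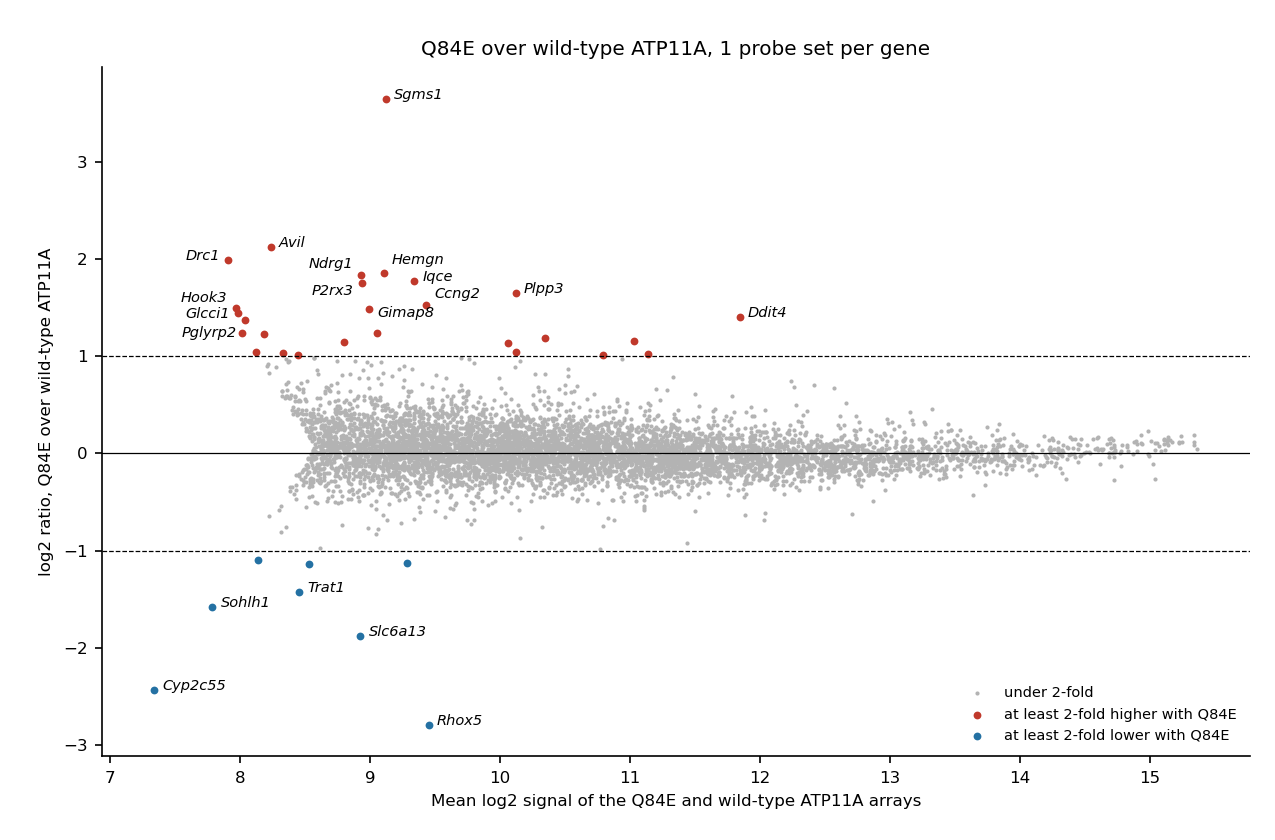
Each point is 1 of 6803 genes, with the mean log2 signal of the 2 arrays on the horizontal axis and the log2 ratio of Q84E over wild-type ATP11A on the vertical axis, and dashed lines mark 2-fold. Red points are the 27 genes at least 2-fold higher with Q84E and blue points the 8 at least 2-fold lower on the deposited scale. Sgms1 stands furthest from 0 at 3.66, Ddit4 is the brightest of the red points, and the cloud narrows as the signal increases.

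The flippase machinery itself differed little. Here and in what follows, 3 signals of a gene stand in the order parental, wild-type and Q84E, and a value in parentheses after them is the log2 ratio of Q84E over wild-type. The brighter probe set of the endogenous Atp11a gave 478, 253 and 244 and the dimmer one 131, 16.3 and 31.7, the last 2 being under the 50th percentile of their arrays. Neither was bright enough to be compared, and a human transgene need not be seen by mouse probe sets, which therefore do not measure how much ATP11A either line made. Tmem30a, the chaperone subunit, had signals of 1292, 1567 and 1657 and a log2 ratio of 0.081. Atp11b, a related flippase of endosomes, had 1718, 1498 and 1764 and 0.24. Of 20 measured flippase and floppase genes 7 were compared, and all 7 lay above 0 with a median of 0.19, beside 0.0094 over all genes, although Tmem30a, Abcc1 and Atp8b2 fell below 0 when the array medians were made equal. Only Atp9a, a P4-ATPase of endosomes that needs no TMEM30A, passed 1.5-fold among them, at 328, 284 and 451 (0.67). Its wild-type signal was the lowest of the 3 and its Q84E signal the highest. Of the scramblases, which move lipids in both directions without ATP, 7 of 16 were compared with a median of 0.094, which turned to -0.043 with equal array medians. Ano10 had the largest ratio among them, 0.51, at 614, 442 and 628.

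Sgms1, the gene for sphingomyelin synthase 1 of the Golgi, stood furthest from equality. Its brightest probe set gave 113 in parental cells, 157 with wild-type ATP11A and 1977 with Q84E. A second probe set gave 64.5, 86.3 and 1728, and the next one 66.2, 98.5 and 920.0. On all of them the parental and wild-type signals lay below the brightness limit and only the Q84E signal above it. The log2 ratios of the 3 probe sets were 3.66, 4.32 and 3.22, or 12.6-fold, 20.04-fold and 9.34-fold. The error of 0.19 given above pools the compared probe sets not above the 90th percentile on both arrays, those of Sgms1 included. It was not estimated separately for signals as dim as those of Sgms1 on the wild-type array. The remaining probe set, which was too dim to be compared, gave 74.2, 87.0 and 109.6 (0.33).

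RefSeq lists 4 start sites for mouse Sgms1, and the windows around the first 2 are shown because this gene carried the largest difference and because its start sites differ in what they hold. Each window runs from 250 bases before to 50 bases after a start on assembly GRCm38.p6. Start site 1 is chr19:32388463-32388762 and start site 2 is chr19:32388000-32388299, both on the minus strand. Capitals mark the core of the hypoxia response element, ACGTG or GCGTG on either strand.
Sgms1 start site 1: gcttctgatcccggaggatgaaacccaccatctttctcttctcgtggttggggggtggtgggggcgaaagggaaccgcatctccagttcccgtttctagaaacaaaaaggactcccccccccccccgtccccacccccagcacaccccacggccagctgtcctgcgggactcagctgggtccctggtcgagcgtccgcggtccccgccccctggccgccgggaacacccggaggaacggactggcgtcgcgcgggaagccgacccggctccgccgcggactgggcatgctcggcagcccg
Sgms1 start site 2: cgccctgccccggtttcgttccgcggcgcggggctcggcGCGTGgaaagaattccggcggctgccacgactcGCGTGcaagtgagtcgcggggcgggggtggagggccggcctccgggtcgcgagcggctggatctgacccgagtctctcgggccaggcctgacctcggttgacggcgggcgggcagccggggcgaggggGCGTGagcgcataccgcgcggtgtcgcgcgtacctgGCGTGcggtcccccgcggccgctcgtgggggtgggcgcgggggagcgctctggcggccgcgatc
The 4 windows held 0, 4, 0 and 1 such cores. The array does not show which start site was used on either array.

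The other compared genes of sphingolipid metabolism stayed within 1.5-fold on the probe set that stands for each. Of 21 measured genes of sphingomyelin and ceramide synthesis 12 were compared, 7 above and 5 below 0, and Sgms1 was the only one past 2-fold or 1.5-fold. The median was 0.11, which became -0.024 with equal array medians. Sptlc1, a subunit of serine palmitoyltransferase, the entry enzyme of the pathway, gave 1564, 1709 and 2132 (0.32). Ugcg, which makes glucosylceramide from the same ceramide pool, gave 595, 477 and 568 (0.25). B4galt5, the lactosylceramide synthase that acts on the product of Ugcg, gave 701, 798 and 685 (-0.22). Ceramide synthase Cers5 and the ceramide transfer protein gene Cert1, which feeds ceramide to Sgms1 in the Golgi, were at 0.14 and 0.13. None of these members came near the size of the Sgms1 difference. Of the genes that break sphingolipids down 8 of 19 were compared, 4 on either side of 0, with a median of 0.0057. Acid sphingomyelinase, Smpd1, gave 406, 368 and 502 (0.45), and the ceramidase Acer2 462, 336 and 447 (0.41). Smpd2, a neutral sphingomyelinase, was the lowest at -0.19. Some dimmer probe sets, which were not compared, passed 1.5-fold in either direction. Those of Smpd1 and B4galt5 had 0.69 and -0.59, and for Sptlc1 a dimmer one had 1.24 and another 0.13.

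Genes that handle the other lipids of the Sgms1 reaction, phosphatidylcholine and diacylglycerol, were higher with Q84E in several steps. Diacylglycerol kinases, lipins and lipid phosphatases had 13 of 27 measured genes compared, 10 above 0, with 2 past 2-fold, 3 past 1.5-fold and a median of 0.22. Plpp3, which removes phosphate from lysophosphatidic acid, phosphatidic acid and other lipids, gave 962, 629 and 1976, a ratio of 1.65. Its other probe set gave 319, 232 and 704 (1.60). On both probe sets of Plpp3 the wild-type signal was the lowest and the Q84E signal the highest. Dgka, the diacylglycerol kinase of resting T cells, gave 979.9, 1585 and 3215 (1.02), the parental signal being the lowest. Lpin1, a phosphatidate phosphatase, gave 223, 239 and 462 (0.95), the parental and wild-type signals lying close together. Plcg1, the phospholipase that releases diacylglycerol after receptor triggering, was at 0.43.

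Phosphatidylcholine and phosphatidylethanolamine synthesis had 14 of 20 measured genes compared, 9 above 0, with a median of 0.18. Slc44a2, a choline transporter-like protein, was the only one past 1.5-fold at 1467, 1369 and 2097 (0.61). Its relative Slc44a1 gave 1044, 1048 and 1283 (0.29), and Pcyt2, the regulated enzyme of phosphatidylethanolamine synthesis, 1398, 1488 and 1789.9 (0.27). Chka, a choline kinase, lay at -0.099, and Ptdss1, a phosphatidylserine synthase, was the lowest at 3208, 2962 and 2520.4 (-0.23). The other synthase, Ptdss2, lay at 0.14, and Selenoi and Etnk1, also of the ethanolamine branch, lay at -0.020 and -0.013, so the members of neither branch shared a sign. Cholesterol synthesis had 19 of 21 measured genes compared and 17 above 0, with a median of 0.17 and none past 1.5-fold in either direction. Dhcr7, the last enzyme of the pathway, gave 935, 872 and 1159 (0.41), and Srebf2, its master transcription factor, 1968, 2371 and 2987 (0.33). Pmvk and Idi1, enzymes of the mevalonate branch, were at 0.33 and 0.29, but the second compared probe set of Idi1 had -0.15. Of the genes of LXR signalling and cholesterol transport 11 of 21 were compared and 9 lay above 0, with a median of 0.20 and none past 1.5-fold. Srebf1 was at 0.40, Npc2, the lysosomal cholesterol carrier, at 0.36, and Osbpl2, a lipid transfer protein, at 0.40. The medians of the phosphatidylcholine, cholesterol and LXR lists kept their sign under every scaling tried, but with the brightness limit at the 90th percentile the phosphatidylcholine median was -0.013. Fatty acid synthesis had 18 of 22 measured genes compared with a median of 0.090, which turned to -0.047 with equal array medians. Acaca, acetyl-CoA carboxylase, was its highest member at 0.43.

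Genes that cells raise on nutrient or growth factor withdrawal and in hypoxia were among the highest of the comparison. FOXO transcription factors act in the nucleus when growth factor signalling through AKT is low, and 12 of 25 measured FOXO genes and targets were compared. All 12 lay above 0, with 2 past 2-fold, 4 past 1.5-fold and a median of 0.35, beside 27 of 6803 genes (0.397%) past 2-fold in all. Ccng2, an atypical cyclin linked to cell cycle arrest, gave 361, 407 and 1176 (1.53), and its second probe set 224, 255 and 678 (1.41). The parental and wild-type signals of Ccng2 were close and the Q84E signal stood apart on both. Foxo3 itself gave 255, 346 and 818 (1.24) on a probe set with an _a_at name, while another, too dim to be compared, gave 241, 236 and 261 (0.15). The compared probe set of Foxo3 reached the brightness limit on the Q84E array only. Probe sets with a letter before the _at ending of their name (_a, _s or _x) are called less specific here. The term does not by itself mean that they detect other genes. Txnip, a thioredoxin-binding protein that restrains glucose uptake, gave 304, 441 and 808 (0.87) and on its second probe set 93.98, 200.3 and 492 (1.30). Btg1, an antiproliferative gene of quiescent lymphocytes, gave 478, 696 and 1051 (0.60). For Txnip and Btg1 the 3 arrays were ordered with the parental signal lowest and the Q84E signal highest. The smallest ratios of the list were those of Tob1 (0.093) and Sesn1 (0.044), which fall below 0 when the array medians are made equal.

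Hypoxia-inducible factor switches on glycolysis, mitophagy and its own inhibitors when oxygen is low. Of 38 measured hypoxia response genes 32 were compared, 22 above and 10 below 0, with 4 past 2-fold and 6 past 1.5-fold, none of them lower. Over all 6803 genes 0.397% were past 2-fold higher and 2.03% past 1.5-fold higher. Of the 4, Ndrg1 and Ankrd37 reached the brightness limit on the Q84E array only and were bound to be higher. Ccng2, already counted with the FOXO genes, is another of the 4. The median of the hypoxia list was 0.14, and -0.00062 with equal array medians. Ndrg1, a gene of differentiation and stress, gave 168, 258 and 925, and its 5 probe sets had log2 ratios of 1.08, 1.56, 1.62, 1.84 and 1.98. Every one of the 5 was past 2-fold, and on every one the parental signal was the lowest. Ddit4, an inhibitor of mTORC1 that is induced by hypoxia, glucocorticoids and ATF4, gave 1562, 2261 and 5991 (1.41) and was the brightest gene past 2-fold. Ankrd37, a direct target of hypoxia-inducible factor, gave 335, 300.0 and 663 (1.14). Bnip3, a mitophagy receptor, gave 987, 1115 and 1934 (0.79), and Kdm3a, a histone demethylase, 1273, 1204 and 1862 (0.63). The glycolytic enzymes of the list, singled out after their values were seen, lay within 1.5-fold, from -0.15 for Pgam1 to 0.39 for Pfkl, with Ldha at 0.064. Hif1a, the factor's regulated subunit, gave 4373, 4664 and 4064 (-0.20), and Pfkfb3, a glycolytic regulator, was the lowest at 376, 416 and 328 (-0.34).

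The promoters of 4 of these genes are shown because their transcripts were higher together, with the core of the hypoxia response element (ACGTG or GCGTG, either strand) in capitals as above. The windows from RefSeq on GRCm38.p6 are chr5:93267323-93267622 on the plus strand for Ccng2 and, on the minus strand, chr10:59951721-59952020 for Ddit4, chr8:45999801-46000100 for Ankrd37 and chr7:138909457-138909756 for Bnip3. Where capitals run on, cores overlap or adjoin.
Ccng2: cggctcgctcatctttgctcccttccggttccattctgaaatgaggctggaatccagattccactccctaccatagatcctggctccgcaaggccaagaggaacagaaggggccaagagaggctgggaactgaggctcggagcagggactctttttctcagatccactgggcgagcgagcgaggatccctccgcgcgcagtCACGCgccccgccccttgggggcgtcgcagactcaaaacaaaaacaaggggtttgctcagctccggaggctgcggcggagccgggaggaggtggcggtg
Ddit4: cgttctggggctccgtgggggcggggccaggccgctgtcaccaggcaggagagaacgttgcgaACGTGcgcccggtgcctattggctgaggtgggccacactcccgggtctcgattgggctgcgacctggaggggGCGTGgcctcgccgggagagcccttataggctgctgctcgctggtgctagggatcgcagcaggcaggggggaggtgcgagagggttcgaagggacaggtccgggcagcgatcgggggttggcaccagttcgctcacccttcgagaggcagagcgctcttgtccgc
Ankrd37: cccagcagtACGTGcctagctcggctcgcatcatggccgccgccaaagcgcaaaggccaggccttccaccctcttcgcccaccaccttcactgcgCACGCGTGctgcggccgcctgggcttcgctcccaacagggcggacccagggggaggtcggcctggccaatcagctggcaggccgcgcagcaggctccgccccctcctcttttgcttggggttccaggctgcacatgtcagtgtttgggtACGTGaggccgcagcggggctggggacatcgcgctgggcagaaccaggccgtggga
Bnip3: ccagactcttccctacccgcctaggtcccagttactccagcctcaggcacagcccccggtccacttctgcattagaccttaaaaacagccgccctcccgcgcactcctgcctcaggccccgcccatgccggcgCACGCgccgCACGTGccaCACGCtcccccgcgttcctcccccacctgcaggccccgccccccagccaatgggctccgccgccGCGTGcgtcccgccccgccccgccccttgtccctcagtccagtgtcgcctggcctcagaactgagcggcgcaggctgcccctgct
The windows hold 1, 2, 4 and 5 cores. Such short letters are common. A core stood in a window of 27 of the 29 hypoxia genes that had a promoter in the table, of 72.3% of the 5653 compared genes and of 46.7% of all 27025 genes. Among the genes at least 2-fold higher with Q84E, 11 of 20 with a promoter in the table had one. The forkhead core GTAAACA stood in 3 of 12 FOXO list genes, Btg1, Sesn1 and Txnip, and in 3.02% of the compared genes, but in 0 of the 20 genes at least 2-fold higher. The element TGATGNAA, bound by ATF4 with C/EBP proteins, stood in 7 of 25 genes of the ATF4 list, among them Chac1 and Trib3, in 2.39% of the compared genes and in 2 of those 20. The sterol element core TCACNCCAC stood in 1 of 15 cholesterol synthesis genes, Hmgcs1, and in 1.33% of the compared genes, and again in 0 of those 20 genes. All were sought on both strands, and a match is a description of the letters, not of binding.

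ATF4 drives amino acid synthesis, transport and stress genes when translation initiation is limited. Of 35 measured genes of this response 30 were compared, 25 above 0, with 1 past 2-fold, 6 past 1.5-fold and a median of 0.17. After Ddit4 came Sesn2, an inhibitor of mTORC1, at 367, 292 and 515 (0.82). Slc6a9, a glycine transporter, gave 483, 437 and 759 (0.80), with 0.38 on its second compared probe set, and Chac1, which degrades glutathione, 1188, 991 and 1590.0 (0.68). On the brightest probe sets of Sesn2, Slc6a9 and Chac1 the wild-type signal was the lowest of the 3. The second probe set of Slc6a9 had the parental signal lowest, at 238, 357 and 464. Stc2, a secreted stress glycoprotein, had 3 probe sets at 0.61, 0.63 and 0.74, all past 1.5-fold. Most chaperones of the endoplasmic reticulum and related genes lay on the other side of 0, by small ratios. Of 29 measured endoplasmic reticulum chaperones and related genes 27 were compared, 8 above and 19 below 0, with a median of -0.072. Pdia4, a protein disulphide isomerase, gave 2323, 2595 and 1918 (-0.44), and Hsp90b1, the chaperone GRP94, 14746, 15249.6 and 12175 (-0.32). Sdf2l1, a partner of the chaperone BiP, gave 8456, 7707 and 6217 (-0.31). Dnajc3 was the highest of the list at 3560, 2313 and 2798 (0.28), and its 4 compared probe sets ran from 0.17 to 0.49.

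Genes of glucocorticoid signalling in lymphocytes overlapped with those above. Of 17 measured genes 11 were compared, 8 above 0, with 2 past 2-fold and a median of 0.21. Glcci1, a glucocorticoid-induced transcript, gave 116, 154 and 418 (1.44), and its second probe set 166, 107 and 579.9 (2.44), so its size differed between probe sets although both were past 2-fold. Tsc22d3, which encodes the glucocorticoid-induced leucine zipper protein, gave 487, 653 and 866 (0.41). The receptor gene Nr3c1 itself lay at 1401, 1663 and 1482 (-0.17). Ddit4 and Txnip belong to this list as well as to those of hypoxia and FOXO, so the lists are not separate observations.

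T cell genes were higher with Q84E than with wild-type ATP11A in many cases, and for several the wild-type array was the one that stood apart. The surface receptors and costimulators had 8 of 36 measured genes compared, 6 above 0, with 3 past 1.5-fold, none past 2-fold and a median of 0.37. Pdcd1, the inhibitory receptor PD-1, gave 1288, 593 and 1171 (0.98). Cd2, an adhesion receptor, gave 1518, 821 and 1584 (0.95), and Cd37, a tetraspanin, 641, 412 and 733 (0.83). Parental and Q84E signals were close for Pdcd1, Cd2 and Cd37, and the wild-type signal was lower than both. In RNA from a whole culture, fewer cells with a transcript and less of it per cell cannot be told apart. The summed signal of the T cell markers, which include Cd2 and Cd3d, was 31802 on the wild-type and 36223 on the Q84E array, and its part in these ratios was not tested. Spn, the sialomucin CD43, went the other way at 507, 610.0 and 484 (-0.33). When genes down to the 50th percentile were admitted, the median of this list was 0.023.

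The T cell receptor complex and its proximal signalling genes had 22 of 36 measured genes compared, 17 above 0, with 3 past 1.5-fold higher, 1 past 2-fold lower and a median of 0.17. Cd3d, a subunit of the CD3 complex, gave 6898, 4272 and 6976 (0.71). Other compared genes of the receptor complex did not share this size. Cd3g gave 4474, 3399 and 3549 (0.062) and Cd247 1391, 1037 and 1120 (0.11), both below the parental signal on either DKO array. Grap2, the adaptor that joins LAT to SLP-76, gave 569.6, 587 and 1003 (0.77). Themis, a regulator of receptor signalling in thymocytes, gave 1318, 1214 and 1969.9 (0.70), and its 2 other compared probe sets had 1.03 and 1.12. Cd3d was low on the wild-type array only, whereas for Grap2 and Themis the Q84E array was the high one. Trat1, a transmembrane adaptor that stabilises the receptor at the surface, was the exception at 1451, 575 and 213 (-1.43), and a dimmer probe set that was not compared gave 534, 244 and 86.5 (-1.49). Its signal was highest in parental cells and lowest with Q84E on both.

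Among thymocyte transcription factors and recombination genes 19 of 33 were compared, 13 above 0, with 4 past 1.5-fold higher, 1 lower and a median of 0.17. Dntt, the terminal transferase of immature lymphocytes, gave 508, 621 and 1214 (0.97), but its second compared probe set went the other way at 440.2, 464 and 377 (-0.30). Tox, a nuclear factor of thymocyte selection, gave 1198, 983 and 1730.3, and its 3 probe sets had 0.82, 0.81 and 0.70. Tox2 gave 1655, 549.8 and 962 (0.81). Id2, an inhibitor of E proteins, was the lowest at 455, 664 and 389 (-0.77). Tox2 was highest in parental cells and Id2 was highest with wild-type ATP11A, so the 3 arrays were not ordered in 1 way. Homing receptors and integrins had 11 of 26 genes compared, 8 above 0, with a median of 0.15. Ccr9, the gut and thymus homing receptor, gave 814, 309 and 599 (0.96), and Itgal, the alpha chain of LFA-1, 1935, 1217 and 1904 (0.65). Its beta chain, Itgb2, gave 2662, 1836 and 2549.6 (0.47). For all 3 the wild-type signal was the lowest, and the parental signal exceeded that with Q84E. S1pr2, a sphingosine 1-phosphate receptor, was the lowest at 353, 481 and 343 (-0.49).

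Small receptor and GTPase families held some of the highest single genes. GIMAP proteins are GTPases of lymphocyte survival, and 3 of 8 were compared. Gimap8 gave 349, 304 and 853 (1.49), Gimap9 1066, 1116 and 1766 (0.66) and Gimap1 1498, 1502 and 1959 (0.38). For each of them the parental and wild-type signals were close and the Q84E signal was the highest. P2rx3, an ATP-gated cation channel better known from sensory neurons, gave 291, 267 and 902 (1.76) and on a second probe set 227, 211 and 674 (1.67). Its relative P2rx4 gave 214, 260.4 and 393 (0.59), and P2rx7, the ATP receptor of T cells, 968, 938 and 922 (-0.025). Cytotoxic and effector genes of T cells could not be described, since none of 25 measured genes was bright enough on either array.

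**Figure D2:**
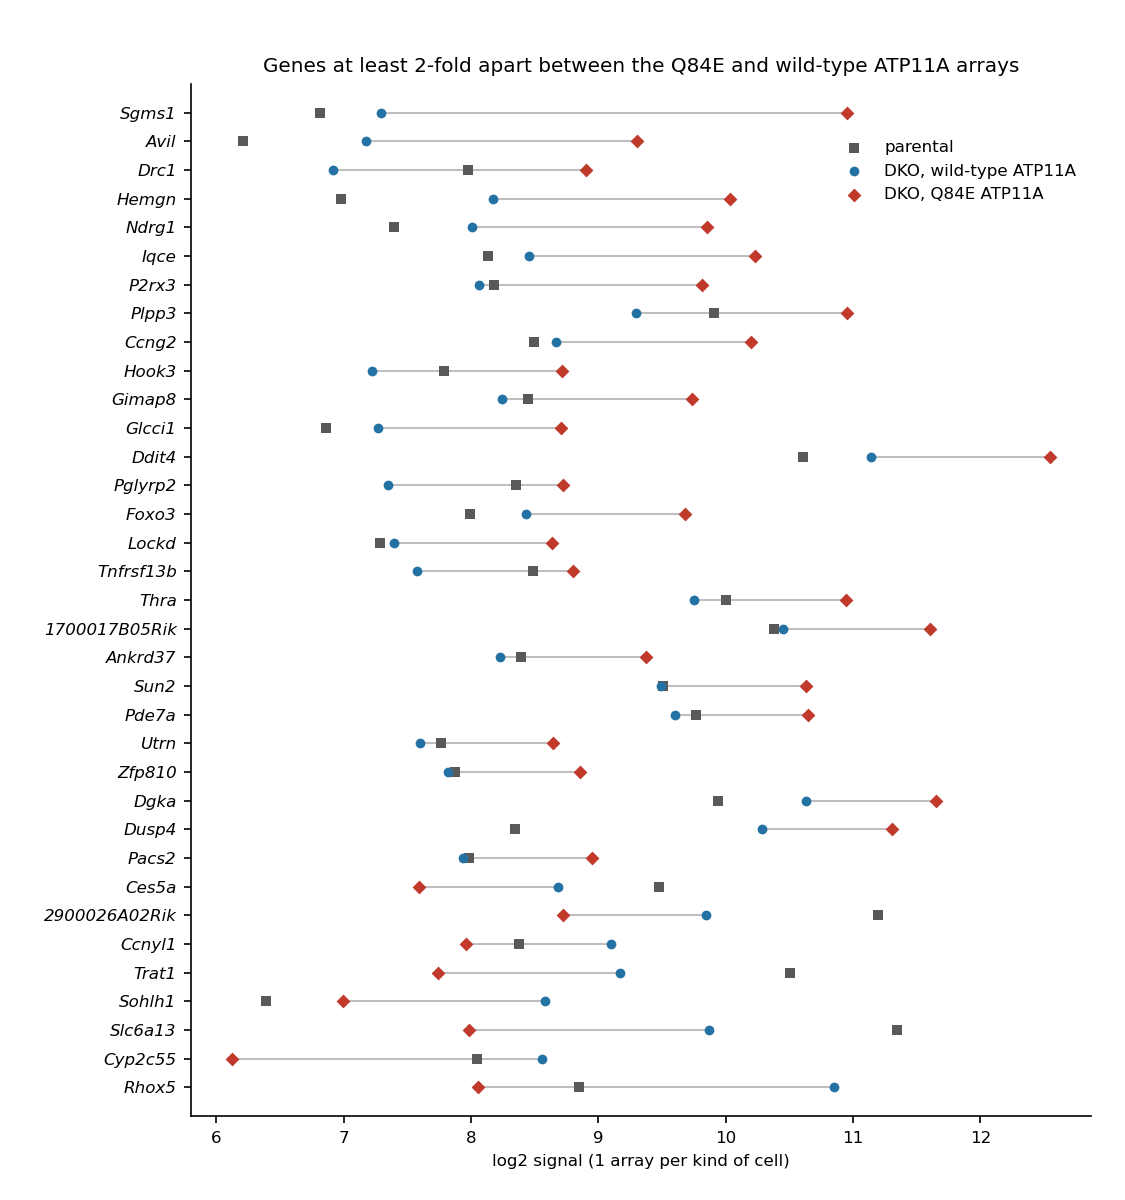
Log2 signals of the 35 genes at least 2-fold apart, with 1 array per kind of cell: grey squares are parental cells, blue circles DKO cells with wild-type ATP11A and red diamonds DKO cells with Q84E ATP11A, and a line joins the 2 arrays compared. For Sgms1 the parental and wild-type points lie together and the Q84E point far to the right, for Drc1 and Plpp3 the parental point lies between the others, and for Slc6a13 and Trat1 it lies beyond the wild-type point.

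The other genes at least 2-fold higher with Q84E had varied functions. Avil, an actin-severing protein of the gelsolin family, gave 74.0, 144 and 631 (2.13), while the 25 compared genes of the gelsolin family and cortical actin had a median of 0.10 (-0.037 with equal array medians) and no further member past 1.5-fold. Drc1, of the dynein regulatory complex of motile cilia, gave 251, 121 and 479.6 (1.99). Iqce, a protein of the ciliary base in Hedgehog signalling, gave 281, 350.5 and 1203 (1.78), and its 2 dimmer probe sets, which were not compared, gave 0.84 and 0.96. Drc1 was lowest with wild-type ATP11A, whereas Avil and Iqce were lowest in parental cells. The 15 compared cilium and axoneme genes had a median of 0.018 (-0.12 with equal medians), with these 2 past 2-fold. Hemgn, a nuclear protein of blood precursors, gave 126, 289 and 1049.6 (1.86). Thra, the thyroid hormone receptor alpha, gave 1023, 862 and 1973 (1.19), and its other probe sets had 1.16 and 0.56. Pde7a, a phosphodiesterase that lowers cyclic AMP in T cells, gave 870.5, 779 and 1605, and its 7 probe sets ran from 0.42 to 1.04. All 7 were thus above 0, and 1 of them passed 2-fold.

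Sun2, which links the nuclear envelope to the cytoskeleton, gave 726, 719.9 and 1587 (1.14). Dusp4, a phosphatase of MAP kinases, gave 325, 1248 and 2524 (1.02), so that its wild-type signal already stood well above the parental one. Dusp6, a phosphatase of ERK in the same feedback group, gave 5125, 4807 and 7689 (0.68). The 11 compared genes of MAP kinase feedback and the immediate early response had a median of 0.032, which became -0.10 with equal medians. Hook3, the peptidoglycan amidase gene Pglyrp2, the noncoding RNA Lockd, Tnfrsf13b, the cytoskeletal linker gene Utrn (utrophin), Zfp810 and the sorting protein gene Pacs2 each rested on 1 compared probe set whose wild-type signal lay under the brightness limit, at log2 ratios between 1.01 and 1.49. Hook3, a dynein adaptor, gave 221, 149 and 420.4, but its 3 dimmer probe sets, not compared, had 0.40, 0.19 and 0.095. With the limit at the 50th percentile a different probe set stood for Hook3 and its ratio was 0.40. Tnfrsf13b, the receptor TACI that is best known from B cells, gave 359, 191 and 446 (1.23), while no B cell marker was bright on any array. The uncharacterised 1700017B05Rik gave 1328, 1401 and 3117 (1.15) and 1.48 on its second probe set.

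Fewer genes were lower with Q84E, and in 4 of the 8 past 2-fold the parental signal was the highest of the 3. Rhox5, an X-linked homeobox gene of the germline and placenta, gave 462, 1845 and 266 (-2.79). Sohlh1, a transcription factor of early germ cells, gave 83.7, 382 and 128 (-1.58), and Stra6, the receptor for retinol-binding protein, 636, 549 and 280.2 (-0.97). Rhox5 and Sohlh1 were high on the wild-type array alone. The germline list had 7 of 26 measured genes compared, 3 above 0, with 2 past 2-fold lower, 3 past 1.5-fold lower and a median of -0.053, its 4 other members lying near 0. Without the less specific probe sets the germline median was -0.97, which was the ratio of Stra6 alone, the middle one of the few genes left. Cyp2c55, a cytochrome P450, gave 265, 376 and 69.8 (-2.43). Slc6a13, a transporter of GABA and taurine, gave 2595, 932 and 254 (-1.88). Ces5a, a carboxylesterase, gave 710.3, 412 and 193 (-1.09), and 2900026A02Rik gave 2347, 920.4 and 422 (-1.13). Slc6a13, Ces5a, 2900026A02Rik and Trat1 shared the order of parental highest, wild-type between and Q84E lowest. Ccnyl1, a cyclin Y-like gene, gave 332, 548 and 249 (-1.14). Tsc22d1, a relative of Tsc22d3, passed 1.5-fold on all 3 compared probe sets, at -0.69, -0.61 and -1.15, with the wild-type signal the highest on each.

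Genes of growth and protein synthesis differed by little, and in the MYC and mitochondrial ribosomal lists most of the small ratios lay below 0. Of 43 measured MYC and ribosome biogenesis genes 41 were compared, 37 of them below 0, with a median of -0.14. Polr1e, a subunit of RNA polymerase I, gave 1714, 1769 and 1374 (-0.36), Ddx21, a nucleolar helicase, 3646, 3957 and 3086 (-0.36), and Max, the partner of MYC, 1631, 1803 and 1438 (-0.33). Mxd3, which competes with MYC for Max, was the highest at 1284, 1499 and 2090.5 (0.48). Myc itself, which belongs to the list but was named after its value was seen, gave 6131, 6318 and 6896 (0.13). Mitochondrial ribosomal proteins had 58 compared genes, 47 below 0, with a median of -0.14. Mrpl38 was the lowest of the list at 1394, 1599 and 1188 (-0.43), followed by Mrpl11 at -0.31. Mrpl42, which the list leaves out and which was named after its value was seen, was lower than both at 8512, 8322 and 5386 (-0.63). The cytosolic ribosomal proteins had 40 compared genes, 34 above 0, and a median of 0.091, which turned to -0.046 with equal medians and 0.0036 with quantile normalization. Oxidative phosphorylation (68 genes) had a median of 0.018, or -0.12 with equal medians. The proteasome (31 genes, 23 below 0), NRF2 targets and redox genes (22 genes, 16 below 0) and heat shock proteins (23 genes, 13 below 0) had medians of -0.047, -0.044 and -0.013. The lists do not hold every gene of their kind, and Cox6a2, a cytochrome c oxidase subunit outside the oxidative phosphorylation list that was also named after its value was seen, gave 967, 928 and 1635 (0.82). No listed member of these 7 lists passed 1.5-fold on the probe set that stands for its gene, and the medians of the MYC and mitochondrial ribosomal lists kept their sign under every scaling tried.

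Cell cycle genes were near the centre. DNA replication and G1/S (37 genes) had a median of 0.00089 and G2 and mitosis (44 genes, 36 above 0) of 0.085, and both were below 0 with equal medians, at -0.14 and -0.052. Nusap1, a spindle protein, gave 3679.8, 4517 and 6118 (0.44), and Mki67, the proliferation antigen, 7570.1, 7847 and 10579 (0.43). Both were lowest in parental cells. Targets of p53 (14 genes) had a median of 0.047, or -0.090 with equal medians, with Mdm2, the ubiquitin ligase of p53, at 999, 820.1 and 1203 (0.55) on one compared probe set and 0.037 on the other, and Perp, a cell death effector, at 1489, 918 and 672 (-0.45). The BCL2 family, caspases and death receptors (21 genes) had 0.061, or -0.076 with equal medians. Hrk, a BH3-only activator of apoptosis, was higher at 323, 334 and 552 (0.72), and Bad and Bak1, also promoters of apoptosis, lower at -0.66 and -0.43, although the second compared probe set of Bad had -0.082. NF-kappa-B subunits and feedback genes (10 genes, 9 above 0) had a median of 0.24. Its inhibitors Nfkbid, with 975, 665 and 1048 (0.66), and Nfkbie, with 933, 1165 and 1795 (0.62), were past 1.5-fold, while the inhibitor Nfkbib went the other way at -0.40.

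**Figure D3:**
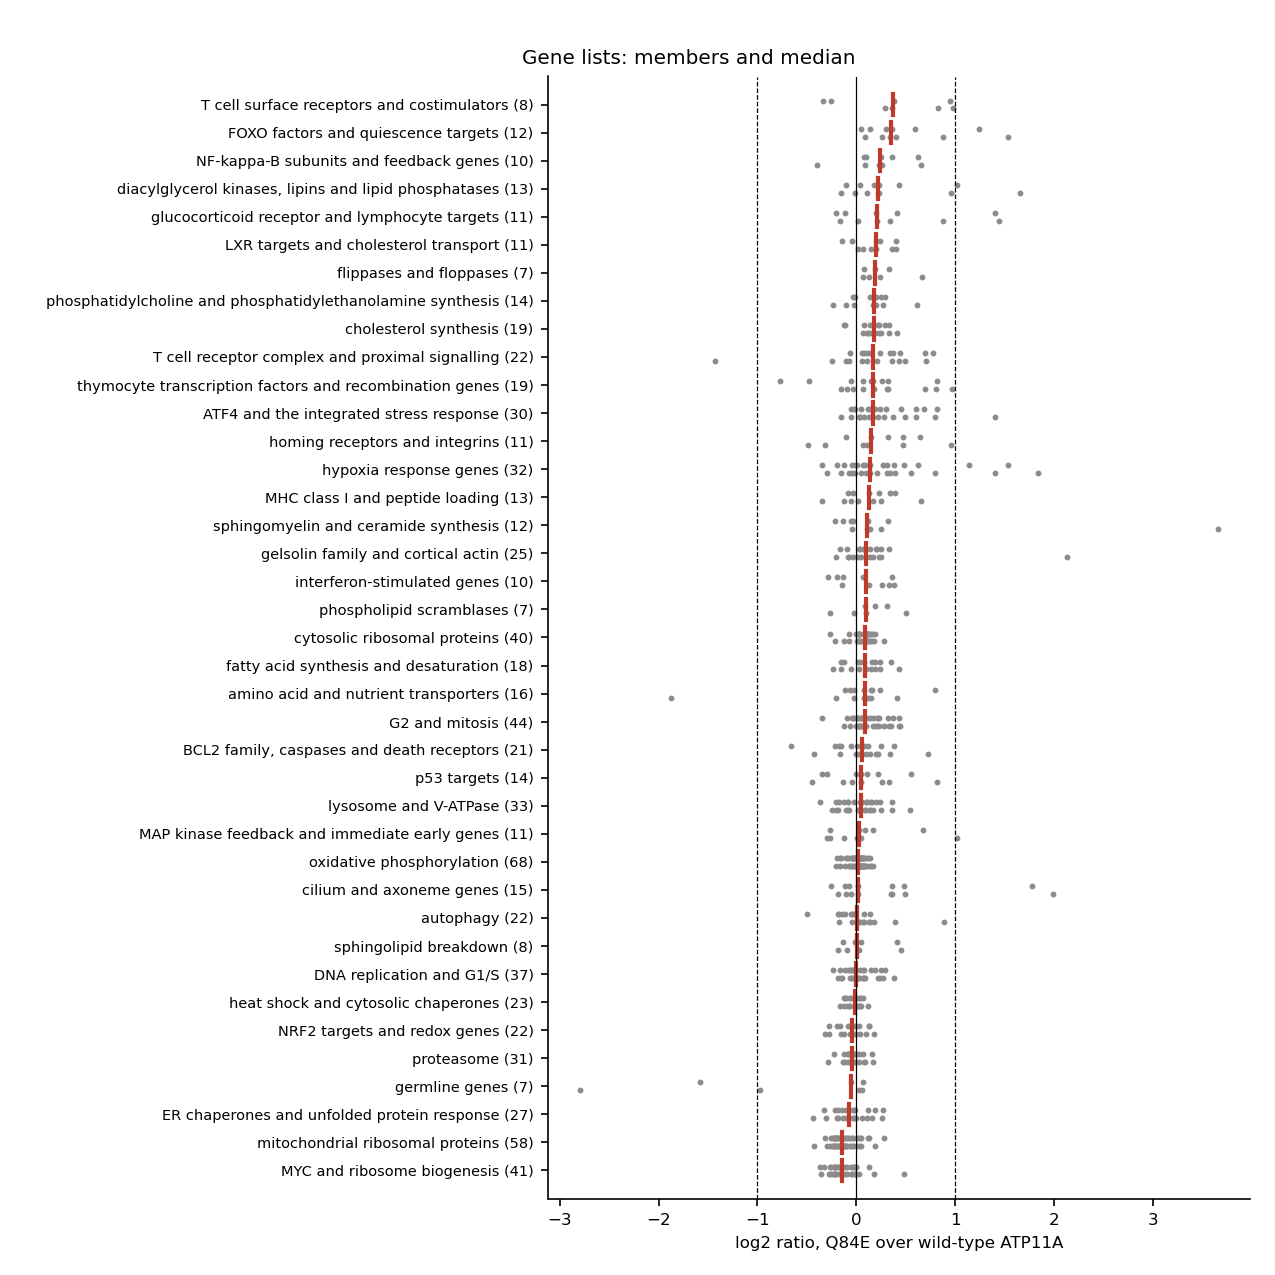
Log2 ratio of Q84E over wild-type ATP11A for the 39 gene lists with at least 7 compared genes, whose number stands in parentheses. Grey points are genes, red bars the list medians and dashed lines 2-fold, on the deposited scale. Medians run from -0.14 for MYC and ribosome biogenesis to 0.37 for T cell surface receptors, 32 of 39 lie above 0, and 19 of 39 change sign when the array medians are made equal.

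Lists of the lysosome, autophagy, MHC class I, the interferon response and nutrient transport showed single genes rather than groups apart. Lysosome and V-ATPase genes (33 compared) had a median of 0.046, or -0.091 with equal medians. Lipa, the lysosomal acid lipase that frees cholesterol and fatty acids, was the highest at 489.9, 428 and 626 (0.55), and the protease Ctsl the lowest at -0.36. The dimmer probe sets of Lipa, which were not compared, had -0.44 and -0.043. Autophagy genes (22 compared) had a median of 0.0064, or -0.13 with equal medians. Atg13, of the initiating kinase complex, gave 302, 228 and 423 (0.89), and Ulk1, the kinase of that complex, 374, 454 and 322 (-0.50), in opposite directions. MHC class I and peptide loading genes (13 compared) had a median of 0.13, or -0.0054 with equal medians, with the peptide transporter Tap1 past 1.5-fold at 381, 328 and 516 (0.66). Interferon-stimulated genes (10 compared) had a median of 0.096, or -0.041 with equal medians, and none passed 1.5-fold. Amino acid and nutrient transporters (16 compared) had a median of 0.089, or -0.047 with equal medians, and their extremes were Slc6a9 and Slc6a13, given above. Such lists held ratios of either sign around 0.

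How far the probe sets of a gene agreed set how firmly a gene could be described. Of the 35 genes past 2-fold 26 had 1 compared probe set only. Of genes with several, 18 had at least 1 compared probe set at least 2-fold higher. All their compared probe sets passed 2-fold in 7 of the 18, all passed 1.5-fold in 10 and all lay above 0 in 14. At least 1 probe set 2-fold lower was found in 4 such genes, of which 0 had all probe sets past 2-fold, 1 all past 1.5-fold and 3 all below 0. Sgms1, Ndrg1, Ccng2, Plpp3, P2rx3, Glcci1 and 1700017B05Rik were the 7. For Sgms1, Ndrg1, P2rx3 and Glcci1 every compared probe set reached the brightness limit on the Q84E array only. Their agreement in sign was therefore fixed by that limit. The dimmer probe set of Sgms1 that was not compared had 0.33. Klhl24, a substrate adaptor of ubiquitin ligases, passed 1.5-fold on its 3 compared probe sets, at 0.59, 0.67 and 0.90. In other genes probe sets of a less specific kind stood apart from the rest. Shmt2, the mitochondrial serine hydroxymethyltransferase, had 2.54 and 2.39 on 2 dim probe sets and 0.13 and 0.13 on the 2 bright ones. Cct3, a chaperonin subunit, had 1.01 on 1 and between -0.089 and -0.032 on 4. Faap20, Riok1 and Lztfl1 on the higher side and Uqcr10 and Rnf19b on the lower side were past 2-fold on 1 probe set of such a kind, which was dimmer than the other compared ones of its gene with wild-type ATP11A for Faap20, Riok1 and Uqcr10 but not for Lztfl1 and Rnf19b, and Rbm12 on 1 of the specific kind, at 1.35 against -0.040. Ptms, a small nuclear protein, had 1.32 and 0.67, and Fastkd2, a mitochondrial RNA-binding protein, -1.45, -0.70 and -0.49. Of the compared probe sets at or above the 90th percentile on both arrays, 1 of 3835 (0.0261%) was past 2-fold. Of all the remaining ones, which include those bright on 1 array only, 61 of 6882 (0.886%) were.

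**Figure D4:**
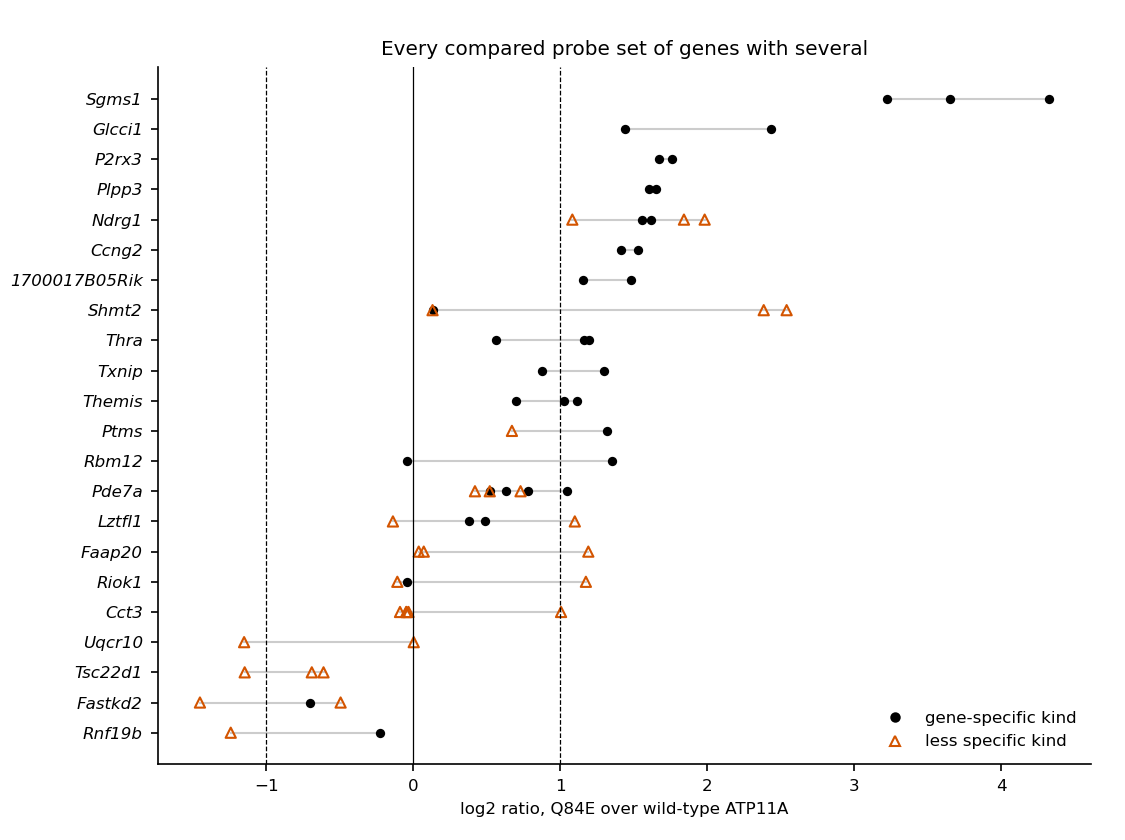
Every compared probe set of the 22 genes that have several and at least 1 past 2-fold, with the log2 ratio of Q84E over wild-type ATP11A on the horizontal axis. Black circles are probe sets whose names end in _at alone, open triangles those called less specific here (_a, _s or _x before that ending), and dashed lines mark 2-fold. The 3 probe sets of Sgms1 lie between 3.22 and 4.32, those of Ndrg1 between 1.08 and 1.98, and those of Shmt2 fall into a pair near 0 and a pair above 2.

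No neighbour of Sgms1 on chromosome 19 showed a difference of that size. Of the 4 measured genes on either side by RefSeq order, Minpp1 gave 2142, 2137 and 2075 (-0.043), Atad1 2223, 2362 and 2348 (-0.0082) and A1cf 57.3, 63.7 and 59.1 (-0.11). Cstf2t, a polyadenylation factor, gave 1679, 1036 and 1619.8 (0.65), with the wild-type signal the lowest. Asah2, a neutral ceramidase next to Sgms1, lay under the 50th percentile with wild-type ATP11A, at 24.2, and just above it with Q84E, at 62.2. The other 3 neighbours lay under the 50th percentile on both arrays. By chromosome, the median log2 ratio ran from -0.012 to 0.064. Over 6511 runs of 15 neighbouring compared genes the 5th and 95th percentiles of the run medians were -0.095 and 0.12. The furthest runs were from Rnf44 to B230219D22Rik on chromosome 13 (median 0.28, 12 of 15 above 0), from Arhgef1 to Shkbp1 on chromosome 7 (0.24, 10 of 15) and from Zfp1 to Taf1c on chromosome 8 (-0.22, 5 of 15).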

How the data were processed

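Total RNA of 3 cell kinds, 1 array each, was labelled as biotinylated cRNA and hybridised to Affymetrix arrays, per the labels' protocols. The authors deposited 1 linear intensity, the signal, for each probe set. The submitters' processing notes name MAS5 as the tool, whose version is not given in the sources used here. Every array had a trimmed mean of 500.0, leaving out 2% at each end, so the authors had scaled the arrays to a common mean, and this scaling can hide part of a common shift of many genes. Detection calls were not used here.

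Of 45101 probe sets 34958 had exactly 1 symbol in the platform's annotation, 932 had several and 9211 were not listed. Of the 6803 compared genes 6793 were matched to RefSeq of assembly GRCm38.p6 by Entrez identifier, and 0 symbols differed; promoters are RefSeq's, and Ndrg1 has no entry. Log2 ratios, percentiles and counts were computed with Python 3.11.15, numpy 2.4.6 and pandas 2.3.3. Signals under their array's 50th percentile were to be raised to it, which no compared probe set needed; where a dimmer probe set of a gene is given, its ratio uses that floor. Each gene was represented by its compared probe set with the highest mean log2 signal. Genes are named by a rule: Atp11a, Atp11b and Tmem30a always, with a further gene not reported here; every gene with a compared probe set past 2-fold; genes with at least 3 such probe sets all past 1.5-fold in 1 direction; up to 4 members per list with the largest absolute ratio; and the 3 furthest runs of 15 neighbours. Others are named for completeness. The members and gene lists were chosen with earlier results of these data known, lists share genes, and list symbols were updated through RefSeq synonyms. Alternatives were other brightness limits, scalings, floors and probe set choices. The steps were tested on simulated data. With 1 array per group there is no test.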

Additional observations from a re-analysis of the deposited data

How the results depend on the processing

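The counts depended most on the brightness limit. With the 75th percentile required on both arrays, 14 probe sets were at least 2-fold higher and 2 lower, or 9 genes and 1 gene. With the 50th percentile on at least 1 array, they were 239 and 66 probe sets, or 118 and 37 genes, which included 26 of the 27 higher and all 8 lower genes. With the 90th percentile, they were 7 probe sets and 1, or 7 genes and 1. Without probe sets of the less specific kinds, 6 probe sets were at least 2-fold lower. Under the other alternatives the counts stayed within 1.5 times the main ones. Quantile normalization and loess gave 24 genes higher and 9 lower, and equal array medians 21 and 12. Over 11 alternatives, 323 of 329 values of genes past 2-fold moved by less than the probe set error of 0.19, 6 moved by more and 0 changed sign. Many of these values could not move. Another floor changed none, and another brightness limit changes a ratio only where a different probe set comes to stand for the gene. Genes that dropped out are not among the 329. The limit on both arrays kept 9 of the 27 higher genes and 1 of the 8 lower, and the 90th percentile 7 and 1. The 6 values that moved by more were Hook3, at 0.40 with the 50th percentile limit, Ndrg1 at 1.56 without the less specific probe sets and 1.62 with the mean of probe sets, and, with that mean, Glcci1 at 1.94, Thra at 0.97 and Pde7a at 0.66. Of 448 list medians 441 moved by less than that error, 7 by more, and 36 had another sign, most of them small medians under equal array medians. No paired analysis was possible because the labels give no replicate numbers that pair samples and each group has 1 array. Leaving out an array leaves no comparison. The arrays give no depth, and signal over background limits genes near the brightness limit. Of the 35 genes past 2-fold 26, bright ones such as Ddit4 among them, rest on 1 compared probe set.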

Other observations

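Sialyltransferases, which cap glycoproteins and gangliosides of the cell surface with sialic acid, are a family that none of the gene lists held, and they were looked at after their values had been seen. Of 20 genes with a named probe set 7 were compared, and 3 were at least 1.5-fold higher with Q84E, beside 2.03% of all compared genes. Since the family was picked by its values, this count is not a result about the family. In the order parental, wild-type and Q84E, St6gal1, which adds sialic acid to N-glycans in alpha-2,6 linkage, gave 1079, 815 and 1509 (log2 ratio 0.89). St3gal6 gave 426, 238 and 457 (0.94), and St3gal2, which sialylates gangliosides and O-glycans, gave 398, 224 and 397 (0.82). For each of these genes the wild-type signal was the lowest. That of St3gal6 and St3gal2 lay under the brightness limit, so that both were bound to be higher on the Q84E array. The parental and Q84E signals were close to each other for St3gal6 and St3gal2, whereas the parental signal of St6gal1 lay nearer the wild-type one. St8sia4, a polysialyltransferase, gave 1213, 1636 and 2010.0 (0.30), the parental signal being the lowest. The other 3 lay between -0.14 for St3gal4 and 0.054 for St6galnac6.

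Variant histone genes did not share 1 direction. H2ax, the variant phosphorylated at DNA breaks, gave 1447, 1964 and 3396 (0.79), and H2az2 gave 2924, 3729 and 6269 (0.75). H2az1, the close paralog of H2az2, gave 19728, 16665 and 14892 (-0.16), and H2aj 1727, 2605 and 2732 (0.069). For H2ax and H2az2 the parental signal was the lowest, and for H2az1 it was the highest. Ankrd33b, just short of 2-fold lower with Q84E, gave 6.34, 2448 and 1240.3 (-0.98), so that it was bright in both DKO lines and lay under the 50th percentile in parental cells.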
